A study of Homo sapiens with 22 samples.

Results

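The BCL2 family genes decide whether a cell keeps its mitochondria intact or enters apoptosis, and 10 of them were followed here in MDA-MB-231, a human triple-negative breast cancer (TNBC) cell line. They were chosen by name among the 20668 gene symbols of the RNA-seq tables: the pro-survival genes BCL2, BCL2L1 and MCL1, the BH3-only genes BCL2L11, BBC3, PMAIP1, BMF and BIK, and the effectors BAX and BAK1. The study asked how 2 ligands of the glucocorticoid receptor (GR) differ in the genes they regulate. Dexamethasone (Dex) is a synthetic steroid that activates GR, and compound A (CpdA) is a plant-derived selective GR modulator. The 10 RNA samples formed 5 groups of 2 biological replicates: vehicle, 100 nM Dex for 2 h, 100 nM Dex for 4 h, 10 μM CpdA for 2 h and 10 μM CpdA for 4 h. All cells, vehicle included, had first spent 3 days without phenol red and in serum (5%) stripped with charcoal, which lowers steroid hormones. The 2 ligands were given at different doses, so a difference between them is a difference between these 2 treatments. The labels give the vehicle samples no time, whereas the column headings of the study's own table name them for 2 h and 4 h, and here both served as the reference at either time. If those headings hold, the 2 vehicle samples also differ in time, and their SD includes that difference. Neither time then has a replicated vehicle of its own, and a change from 2 h to 4 h has no tested vehicle change beside it. A single cell line was used, and this line carries mutant p53.

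Pro-survival proteins hold BAX and BAK1 in check. BH3-only proteins are stress sensors that bind the pro-survival proteins, and some also activate BAX and BAK1 directly. Once active, BAX and BAK1 open the outer mitochondrial membrane and release cytochrome c, which starts the caspases. Glucocorticoids kill lymphoid cells partly by raising BCL2L11, whereas in many epithelial cells they protect from apoptosis.

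GR binds DNA at the glucocorticoid response element (GRE), a pair of hexamers in inverted orientation with 3 bases between them. The complete palindromic core, GAACA and its reverse complement TGTTC with 3 bases of any kind between them, was searched within 10 kb on either side of the main transcription start. A palindrome reads alike on both strands. It occurred at none of the 10 members and at 2.12% of 10871 kept genes with an annotated start. The looser core, GNACA and TGTNC around the same 3 bases, of which the complete core is a special case, occurred at 22.5% of those genes and at 3 of the 10 members. The 3 sequences are shown because they are the only GRE-like letters found near the family, and capitals mark the fixed arms of the element:
BAK1, GRCh37 chr6:33539910-33539938, minus strand: tctgcctgGGACAcaaTGTCCcagctccc
BCL2, GRCh37 chr18:60992683-60992711, minus strand: agaggcaaGAACAgacTGTACccgagctt
BIK, GRCh37 chr22:43500812-43500840, plus strand: ttatattgGAACAgctTGTGCcttcagtc
The BAK1 match lay 8129 bases downstream of the BAK1 start, past the end of the gene and within the annotated span of the neighbouring GGNBP1 but in none of its exons. The BCL2 match lay at position -5695 and the BIK match at -5930 from their starts, upstream of both and in no annotated gene. A match is a description of letters and not a site of binding, and no match says only that these letters are not in these windows.

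Promoters of 8 members were in the RefSeq promoter table, with 10 windows of 250 bases upstream of a start. MCL1 and BIK had no entry. The windows were matched by sequence to GRCh37, and the bases shown lie outside all annotated exons. They are given for 5 members so that their letters can be set beside the changes described below, with BCL2L1 and BMF shown at their upstream start, and capitals mark the motifs named below:
BCL2L1, GRCh37 chr20:30311793-30312016, minus strand: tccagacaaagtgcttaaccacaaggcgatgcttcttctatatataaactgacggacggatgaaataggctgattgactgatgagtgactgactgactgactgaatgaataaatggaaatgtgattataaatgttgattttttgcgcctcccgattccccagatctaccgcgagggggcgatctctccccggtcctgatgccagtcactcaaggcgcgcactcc
PMAIP1, GRCh37 chr18:57566978-57567227, plus strand: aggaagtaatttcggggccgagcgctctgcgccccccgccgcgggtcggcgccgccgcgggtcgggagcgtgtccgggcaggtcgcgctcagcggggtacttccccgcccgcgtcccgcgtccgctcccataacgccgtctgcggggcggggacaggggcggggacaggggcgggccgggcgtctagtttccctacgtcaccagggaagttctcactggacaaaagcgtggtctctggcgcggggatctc
BMF, GRCh37 chr15:40401094-40401330, minus strand: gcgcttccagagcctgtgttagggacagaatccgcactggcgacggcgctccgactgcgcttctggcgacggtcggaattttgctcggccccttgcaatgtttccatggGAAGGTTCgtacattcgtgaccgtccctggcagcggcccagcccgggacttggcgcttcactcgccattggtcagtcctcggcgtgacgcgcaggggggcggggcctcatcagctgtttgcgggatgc
BCL2L11, GRCh37 chr2:111878241-111878490, plus strand: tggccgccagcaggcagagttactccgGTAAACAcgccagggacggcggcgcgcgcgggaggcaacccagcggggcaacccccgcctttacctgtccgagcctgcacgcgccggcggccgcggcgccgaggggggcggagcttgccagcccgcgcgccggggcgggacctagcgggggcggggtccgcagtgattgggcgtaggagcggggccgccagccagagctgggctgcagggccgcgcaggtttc
BBC3, GRCh37 chr19:47736024-47736174, minus strand: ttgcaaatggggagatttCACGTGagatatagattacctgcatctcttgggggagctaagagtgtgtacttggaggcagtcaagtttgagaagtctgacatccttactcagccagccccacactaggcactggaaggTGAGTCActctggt
The BBC3 and BCL2L1 windows shown were taken at starts upstream of the main starts used for the GRE search (GRCh37 47734456 and 30310671). The BBC3 positions below are counted from that upstream start. Motifs were searched on both strands in the whole 250-base windows. The FOXO motif GTAAACA stood at position -223 of the BCL2L11 window, counted from the start, and was in 2.98% of all 35116 promoters. The AP-1 motif TGANTCA stood at -113 in BBC3 and was in 6.57% of promoters. The E-box CACGTG stood at -232 in BBC3 and at 4 positions in BAX, and was in 6.34% of promoters. The paired heat shock unit GAANNTTC stood at -141 in BMF and at -226 in BAK1, and was in 5.78% of promoters. The single GRE arm AGAACA was in 12.4% of promoters and in 0 of the 10 member windows. Neither the cAMP response element TGACGTCA (1.65% of promoters) nor the C/EBP-ATF composite TGATGNAAT (0.888%) was in a member window. The BCL2L11 window lies in an intron of a longer annotated BCL2L11 transcript and overlaps the noncoding gene MIR4435-2HG, while those of BMF, PMAIP1, BBC3 and BCL2L1 lie upstream of the annotated gene.

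Values are RPKM, reads on a gene scaled to the length of its transcript and to the mapped reads of the sample, so levels of different genes can be compared per length. Rarely read genes move in whole reads, and the RPKM of a single read gave a relative depth of 1 to 1.212, with the vehicle samples the shallowest, and about 51300000 to 62100000 reads a sample. The GR target TSC22D3 was at 8.22 and 9.79 RPKM in vehicle, at 302 to 315 RPKM in the Dex samples and at 10.5 to 12.4 RPKM in the CpdA samples, and the heat shock gene HSPA6 was at 0.331 and 0.457 RPKM in vehicle and at 11.6 to 54.4 RPKM in the CpdA samples. VIM, a mesenchymal marker of this line, was at 1267 RPKM or more in all 10 samples and ESR1, the oestrogen receptor, at 0.00484 RPKM or less. Of the other markers expected to be low in a claudin-low TNBC line, PGR was at 0.00253 RPKM or less. CDH1 was at 0.226 to 0.465 RPKM and CLDN3 at 0.391 to 1.09 RPKM. EPCAM was at 8.02 to 10.6 RPKM, whereas ERBB2 at 15.9 to 21.6 RPKM and CLDN4 at 20.8 to 56.7 RPKM were not at the low level expected. The Dex 4 h replicates differed from each other with transcript length: replicate 1 minus replicate 2 had a median of -0.22 on the log2 scale over 1981 transcripts longer than 6 kb and of 0.13 over 2582 transcripts shorter than 2 kb, while in the other groups these medians lay between -0.05 and 0.05.

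In vehicle-treated cells the family spanned a wide range of levels. BCL2L1, which encodes BCL-XL, was the highest at 268 ± 15.1 RPKM (SD, n = 2) and ranked 126 among the 12713 genes kept for testing. MCL1, a short-lived pro-survival protein, followed at 92.7 ± 11.3 RPKM (SD, n = 2). BAX, PMAIP1 and BAK1 came next, with means of 51.8, 42.1 and 17.8 RPKM. The other 5 members were under 5 RPKM on average: BBC3 at 4.31, BMF at 3.31, BCL2L11 at 2.21, BIK at 1.46 and BCL2 at 1.09 RPKM. In this order only BBC3 and BMF had replicate values that overlapped. BCL2L1 and MCL1 held the first and second places in all 5 groups, and PMAIP1 moved above BAX in every treated group, with overlapping replicate values at Dex 4 h. BMF, in the seventh place in vehicle, was level with BCL2 after CpdA for 4 h, where the replicate values of the pair overlapped.

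**Figure D1:**
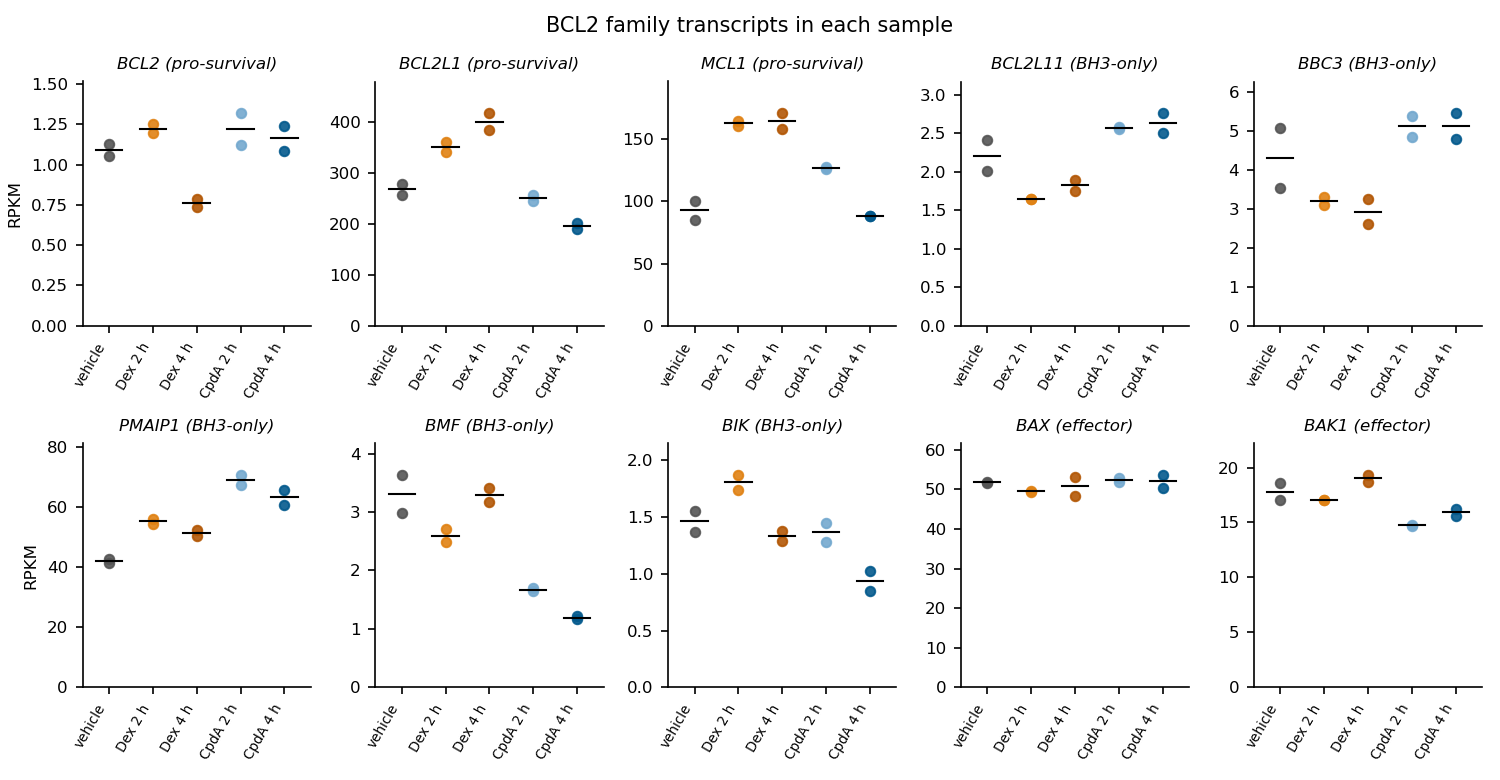
RPKM of the 10 BCL2 family genes (y axis, from 0, a separate scale for each gene) in the 5 groups (x axis). Each point is a sample and each line the mean of 2. The Dex samples of BCL2L1 and MCL1 all lie above vehicle, those of BMF after CpdA all lie below it, and BAX stays between 48.3 and 53.7 RPKM.

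A fit across all 12713 kept genes (limma on log2(RPKM + 0.1), all 10 samples, adjusted p under 0.05) was read for the 10 members, all of which passed the filter on low values. After Dex for 2 h, 3 members rose, 1 fell and 6 did not pass the test, where 10.3% of all genes were called, 4.49% as higher and 5.82% as lower. After Dex for 4 h, 3 rose, 2 fell and 5 did not pass, where 27.4% of all genes were called, 9.26% as higher and 18.2% as lower. After CpdA for 2 h, 2 rose, 2 fell and 6 did not pass, where 6.18% of all genes were called, 1.89% as higher and 4.29% as lower. After CpdA for 4 h, 1 rose, 4 fell and 5 did not pass, where 20.5% of all genes were called, 6.76% as higher and 13.8% as lower. In these 4 comparisons the median size of change of the members was 0.36, 0.28, 0.24 and 0.25 on the log2 scale, against 0.08, 0.14, 0.09 and 0.12 over all genes. With a fold over 1.5 as well, the members called were 1, 1, 2 and 3, beside 4.05%, 8.71%, 1.41% and 3.56% of all genes. The split over all genes depended on scaling: of the genes called, 33.8% were higher after Dex for 4 h, 30.5% after CpdA for 2 h and 33% after CpdA for 4 h, against 49.9%, 44.6% and 55.8% under median scaling, while no called member changed direction. In total, 9 of the 10 members passed in at least 1 comparison with vehicle, as did 40% of all genes, and BAX passed in none. The members were chosen with earlier results of these data known, so their counts and sizes beside those of all genes, here and below, are descriptions. The 4 comparisons share the 2 vehicle samples. A change in RPKM is a change in the share of reads, and in RNA from a whole culture more transcript per cell and more cells with the transcript cannot be told apart.

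**Figure D2:**
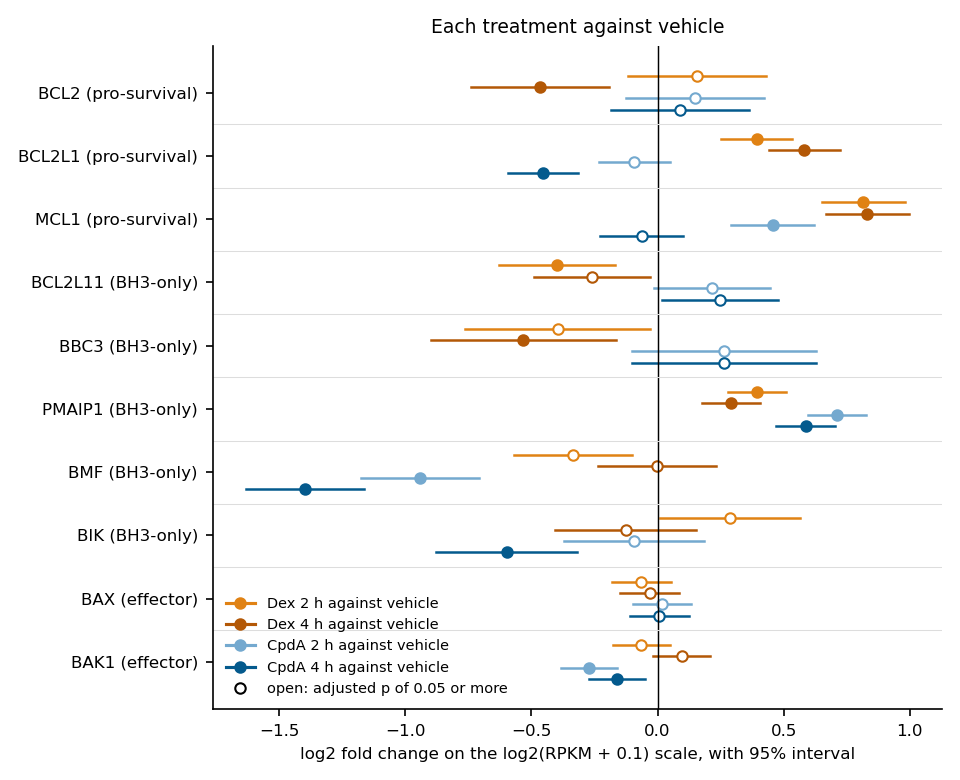
Log2 fold change against vehicle (x axis, log2(RPKM + 0.1) scale) of the 10 members (y axis) for the 4 treatments. Points are limma estimates from 2 samples a group, bars their 95% intervals, and filled points passed an adjusted p of 0.05. Filled Dex points lie to the right for BCL2L1, MCL1 and PMAIP1, and the CpdA points of BMF lie furthest to the left.

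BCL2L1 went up with Dex and down with CpdA. Its level was 278 and 257 RPKM in vehicle, 361 and 341 RPKM after Dex for 2 h, 417 and 385 RPKM after Dex for 4 h, 257 and 245 RPKM after CpdA for 2 h, and 201 and 189 RPKM after CpdA for 4 h. All Dex samples were above both vehicle samples and both CpdA 4 h samples were below them, while the CpdA 2 h samples overlapped the vehicle range. The rise with Dex was 1.31-fold at 2 h (limma adjusted p = 0.0029) and 1.497-fold at 4 h (limma adjusted p = 0.000117). With CpdA the log2 fold change was -0.09 at 2 h (95% interval -0.23 to 0.05), and by 4 h the level had fallen to 0.729 of vehicle (log2 fold change -0.46, limma adjusted p = 0.00106). These calls held with each library left out in turn. The gene has a long, pro-survival and a short, pro-apoptotic splice form, and the tables give a single value for the symbol.

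MCL1 rose with Dex at both times and with CpdA at 2 h. Its level was 101 and 84.8 RPKM in vehicle, 161 and 165 RPKM after Dex for 2 h, 158 and 171 RPKM after Dex for 4 h, 126 and 128 RPKM after CpdA for 2 h, and 88.3 and 88.5 RPKM after CpdA for 4 h. The Dex and CpdA 2 h samples all lay above vehicle, and the CpdA 4 h samples lay between the vehicle samples. The log2 fold change was 0.82 (95% interval 0.65 to 0.98) at Dex 2 h and 0.83 (95% interval 0.67 to 1.00) at Dex 4 h, with limma adjusted p-values of 7.68e-05 and 3.26e-05. At CpdA 2 h it was 0.46 (limma adjusted p = 0.00731), a call lost without CpdA 2 h replicate 1 (0.47, limma adjusted p = 0.0626) or replicate 2 (0.45, limma adjusted p = 0.0691). At CpdA 4 h it was -0.06 (95% interval -0.23 to 0.10). MCL1 protein turns over within hours, and RNA levels do not measure it.

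BCL2, the founding member of the family, was scarce in this line. It was at 1.13 and 1.05 RPKM in vehicle, 1.195 and 1.25 RPKM at Dex 2 h, 0.736 and 0.788 RPKM at Dex 4 h, 1.12 and 1.32 RPKM at CpdA 2 h and 1.09 and 1.24 RPKM at CpdA 4 h. Only the Dex 4 h samples stood below every other sample. The log2 fold change there was -0.46 (limma adjusted p = 0.0192), and the other 3 comparisons with vehicle lay between 0.09 and 0.16 and did not pass. BCL2 has the longest main transcript of the members, 6881 bases, and long transcripts were lower in Dex 4 h replicate 1 than in replicate 2. The part of this difference between the replicates in the call was not tested. Without Dex 4 h replicate 1 the log2 fold change was -0.42, and without vehicle replicate 1 it was -0.42, and the call was lost each time.

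Among the BH3-only genes PMAIP1, which encodes the MCL1-binding protein NOXA, rose with all 4 treatments and more with CpdA. It was at 41.4 and 42.9 RPKM in vehicle, 56.3 and 54.6 RPKM at Dex 2 h, 50.6 and 52.6 RPKM at Dex 4 h, 70.9 and 67.4 RPKM at CpdA 2 h, and 66.0 and 60.7 RPKM at CpdA 4 h. No treated sample overlapped vehicle, and no CpdA sample overlapped a Dex sample. The folds were 1.32 and 1.22 with Dex at 2 h and 4 h, and 1.64 and 1.501 with CpdA, with limma adjusted p-values from 0.000107 to 0.0025, and all 4 calls held with each library left out in turn. PMAIP1 made up 77.1 and 80.6% of the summed RPKM of the 5 BH3-only members in vehicle and 83.8 to 86.7% in the treated samples. BAD, a BH3-only gene outside these 5, was at 66.8 and 65.4 RPKM in vehicle.

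BMF, a BH3-only gene whose protein responds to loss of attachment, had the largest fold of any member, and it fell with CpdA. It was at 3.64 and 2.99 RPKM in vehicle, 2.71 and 2.49 RPKM at Dex 2 h, 3.41 and 3.17 RPKM at Dex 4 h, 1.70 and 1.64 RPKM at CpdA 2 h, and 1.16 and 1.21 RPKM at CpdA 4 h. The CpdA samples were below all vehicle and Dex samples, while the Dex 4 h samples lay within the vehicle range. CpdA brought BMF to 0.52 of vehicle at 2 h (log2 fold change -0.94, 95% interval -1.18 to -0.71, limma adjusted p = 0.00109) and to 0.379 of vehicle at 4 h (-1.399, 95% interval -1.63 to -1.16, limma adjusted p = 5.88e-05). With Dex the log2 fold change was -0.33 at 2 h (limma adjusted p = 0.0829) and 0.00 at 4 h to 2 decimals (95% interval -0.24 to 0.23), the latter turning to 0.10 under quantile normalization and 0.07 under median scaling. Both CpdA calls held with each library left out in turn. These values rested on at least about 324 reads a sample.

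BCL2L11 and BBC3, which encode the potent killers BIM and PUMA, were lower with Dex than with CpdA. BCL2L11 was at 2.00 and 2.41 RPKM in vehicle, 1.64 RPKM in both Dex 2 h samples, 1.75 and 1.89 RPKM at Dex 4 h, 2.58 and 2.56 RPKM at CpdA 2 h, and 2.76 and 2.50 RPKM at CpdA 4 h. Every Dex sample was below and every CpdA sample above both vehicle samples. BCL2L11 fell after Dex for 2 h (-0.40, limma adjusted p = 0.0369), and its log2 fold change was -0.26 after Dex for 4 h, 0.22 after CpdA for 2 h and 0.25 after CpdA for 4 h, none past the test. The call at Dex 2 h was lost without vehicle replicate 2 (-0.27, limma adjusted p = 0.212), without Dex 2 h replicate 1 (-0.40, limma adjusted p = 0.172) and without Dex 2 h replicate 2 (-0.40, limma adjusted p = 0.15).

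BBC3 was at 5.07 and 3.55 RPKM in vehicle, 3.09 and 3.31 RPKM at Dex 2 h, 3.24 and 2.60 RPKM at Dex 4 h, 5.38 and 4.85 RPKM at CpdA 2 h, and 5.45 and 4.78 RPKM at CpdA 4 h. Its vehicle replicates were far apart: the Dex samples were below both, and the CpdA samples lay on both sides of the higher vehicle sample. BBC3 fell after Dex for 4 h (-0.53, 95% interval -0.90 to -0.17, limma adjusted p = 0.0377), and the call was lost without vehicle replicate 1 (-0.28, limma adjusted p = 0.215) or Dex 4 h replicate 2 (-0.38, limma adjusted p = 0.142). Dex for 2 h gave a log2 fold change of -0.40 (limma adjusted p = 0.19), and both CpdA times gave 0.26, neither past the test.

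BIK, a BH3-only protein of the endoplasmic reticulum, was at 1.56 and 1.37 RPKM in vehicle, 1.87 and 1.74 RPKM at Dex 2 h, 1.37 and 1.29 RPKM at Dex 4 h, 1.45 and 1.28 RPKM at CpdA 2 h, and 1.03 and 0.845 RPKM at CpdA 4 h. Only the CpdA 4 h samples were below all others. The fall there was to 0.661 of vehicle (log2 fold change -0.60, limma adjusted p = 0.00915), and the call was lost without vehicle replicate 1 (-0.51, limma adjusted p = 0.0545) or CpdA 4 h replicate 2 (-0.47, limma adjusted p = 0.0804). BIK had the fewest reads of the members, about 47.9 in the lowest sample, where counting alone gives an SD of 14.5% of the value. Both Dex 2 h samples were above vehicle, but the log2 fold change of 0.29 did not pass (limma adjusted p = 0.214).

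The effectors moved least. BAX ranged from 48.3 to 53.7 RPKM over the 10 samples. The Dex 2 h samples (49.7 and 49.3 RPKM) lay just below and the CpdA 2 h samples (52.9 and 52.0 RPKM) just above those of vehicle (51.6 and 51.9 RPKM), and both 4 h groups overlapped vehicle. Its log2 fold change against vehicle was -0.07, -0.03, 0.02 and 0.01 with Dex 2 h, Dex 4 h, CpdA 2 h and CpdA 4 h. The 95% intervals of all 4 lay between -0.18 and 0.13. BAK1 was at 17.1 and 18.5 RPKM in vehicle, 17.0 RPKM in both Dex 2 h samples, 19.3 and 18.7 RPKM at Dex 4 h, 14.7 and 14.8 RPKM at CpdA 2 h, and 15.6 and 16.2 RPKM at CpdA 4 h. All 4 CpdA samples were below all Dex and vehicle samples. BAK1 fell by 0.27 on the log2 scale at CpdA 2 h (limma adjusted p = 0.0142) and by 0.16 at CpdA 4 h (limma adjusted p = 0.0497). The 2 h call was lost without vehicle replicate 2 (-0.21, limma adjusted p = 0.0738), CpdA 2 h replicate 1 (-0.27, limma adjusted p = 0.121) or CpdA 2 h replicate 2 (-0.27, limma adjusted p = 0.104). The 4 h call was lost without vehicle replicate 2 (-0.10, limma adjusted p = 0.208), CpdA 4 h replicate 1 (-0.13, limma adjusted p = 0.265) or CpdA 4 h replicate 2 (-0.19, limma adjusted p = 0.124). BAK1 has processed pseudogenes, BAK1P1 and BAK1P2, that may share reads with it.

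The ligands were also compared directly at each time. At 2 h, 4 members were higher with Dex than with CpdA, 3 were lower and 3 did not pass, where 13.7% of all genes were called, 7.53% as higher and 6.18% as lower. This count of 7 was 4 on leaving out either Dex 2 h or either CpdA 2 h sample, the calls lost being those of MCL1, BBC3 and BAK1. At 4 h, 5 were higher with Dex, 4 were lower and 1 did not pass, where 33.4% of all genes were called, 15.4% as higher and 18% as lower. With a fold over 1.5 as well, 3 members were called at 2 h and 4 at 4 h, beside 4.79% and 9.9% of all genes. At 4 h the median size of difference was 0.53 for the members against 0.15 for all genes on the log2 scale.

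**Figure D3:**
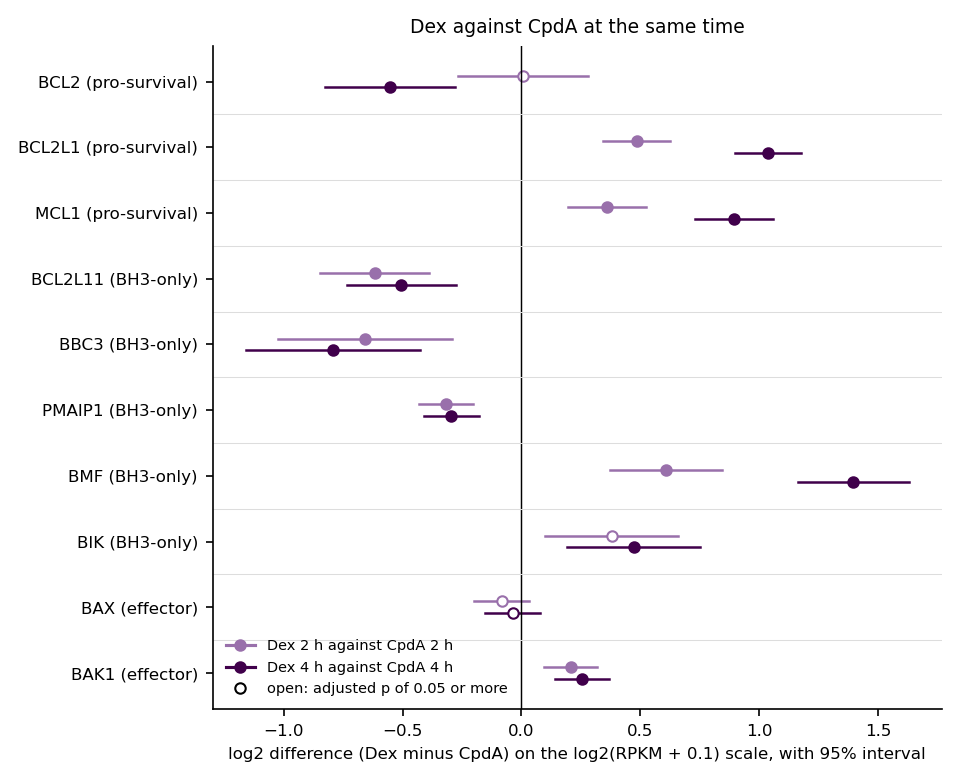
Log2 difference Dex minus CpdA (x axis, log2(RPKM + 0.1) scale) of the 10 members (y axis) at 2 h and at 4 h. Points are limma estimates from 2 samples a group, bars their 95% intervals, and filled points passed an adjusted p of 0.05. BMF, BCL2L1 and MCL1 lie furthest to the right at 4 h, and BBC3, BCL2 and BCL2L11 furthest to the left.

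Of the pro-survival genes, BCL2L1 was 1.399-fold higher with Dex than with CpdA at 2 h and 2.05-fold higher at 4 h (limma adjusted p = 0.000657 and 2.16e-06). MCL1 was 1.28-fold and 1.86-fold higher (limma adjusted p = 0.0099 and 1.64e-05), and its 2 h call was lost on leaving out any of the 4 samples, with values of 0.34 to 0.38 and limma adjusted p-values of 0.0531 to 0.0737. BCL2 did not differ past the test at 2 h (0.01, 95% interval -0.27 to 0.28) and was lower with Dex at 4 h (-0.55, limma adjusted p = 0.0069), a call lost without CpdA 4 h replicate 2 (-0.46, limma adjusted p = 0.0683).

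Of the BH3-only genes, BCL2L11, BBC3 and PMAIP1 were lower with Dex than with CpdA at both times. The log2 differences were -0.62 and -0.51 for BCL2L11, -0.66 and -0.79 for BBC3, and -0.32 and -0.30 for PMAIP1, at 2 h and 4 h, with limma adjusted p-values from 0.00185 to 0.0251. BMF went the other way, at 0.61 and 1.396, or 2.63-fold higher with Dex at 4 h (limma adjusted p = 9.26e-06). BIK was 0.38 higher at 2 h without passing (limma adjusted p = 0.0813) and 0.47 higher at 4 h (limma adjusted p = 0.0165). Leaving out any of the 4 samples at 2 h ended the BBC3 call, with values of -0.73 to -0.59 and limma adjusted p-values of 0.0777 to 0.167, and the BIK call at 4 h was lost without Dex 4 h replicate 1 (0.43, limma adjusted p = 0.0615) or CpdA 4 h replicate 2 (0.35, limma adjusted p = 0.133).

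Of the effectors, BAK1 was higher with Dex by 0.21 at 2 h (limma adjusted p = 0.0223) and 0.26 at 4 h (limma adjusted p = 0.00357). Its 2 h call was lost on leaving out any of the 4 samples (0.20 to 0.21, limma adjusted p = 0.11 to 0.138). BAX did not differ past the test, at -0.08 (95% interval -0.20 to 0.03) and -0.04 (95% interval -0.15 to 0.08).

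Between 2 h and 4 h, 4 members passed the test with CpdA and 1 with Dex. The count with Dex was 4 under quantile normalization or median scaling, where 1655 and 1626 of the 12713 genes were called. The lower count with Dex thus depends on the scaling. With Dex only BCL2 passed in the unscaled fit (-0.62, limma adjusted p = 0.0113), which is 1 of 10 members where 13.6% of all genes were called, 4.55% as higher and 9.02% as lower (of those called, 33.5% were higher, or 53.3% under median scaling), and this call was lost without Dex 2 h replicate 1 (-0.65, limma adjusted p = 0.0611) or replicate 2 (-0.59, limma adjusted p = 0.078). With CpdA, 4 members fell between 2 h and 4 h and none rose, where 12.4% of all genes were called, 5.21% as higher and 7.2% as lower. Of the genes called with CpdA, 42% were higher, or 54.6% under median scaling. The 4 members were MCL1 (-0.52, limma adjusted p = 0.00378), BIK (-0.51, limma adjusted p = 0.0298), BMF (-0.46, limma adjusted p = 0.0227) and BCL2L1 (-0.36, limma adjusted p = 0.00786). All 4 were also lower in vehicle replicate 2 than in vehicle replicate 1. In RPKM, MCL1 was at 84.8 against 101, BIK at 1.37 against 1.56, BMF at 2.99 against 3.64 and BCL2L1 at 257 against 278. A change of vehicle over time was not tested. The MCL1 call held with each library left out. The calls of BIK and BMF were each lost on leaving out any of the 4 CpdA samples (BIK -0.63 to -0.38 with limma adjusted p from 0.0672 to 0.207, BMF -0.48 to -0.43 with limma adjusted p from 0.105 to 0.147). That of BCL2L1 was lost without CpdA 2 h replicate 1 (-0.33, limma adjusted p = 0.0757) or CpdA 4 h replicate 2 (-0.32, limma adjusted p = 0.0754).

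Whether the difference between the ligands itself changed from 2 h to 4 h was tested in the same fit, a comparison added after the data were seen. It widened for BMF (by 0.79, limma adjusted p = 0.015), BCL2L1 (by 0.55, limma adjusted p = 0.00759) and MCL1 (by 0.54, limma adjusted p = 0.0173), where 6.6% of all genes were called, 3.04% as higher and 3.56% as lower. The BCL2L1 call held with each library left out. That of MCL1 was lost without either Dex 2 h sample or any CpdA sample (0.52 to 0.55, limma adjusted p from 0.0603 to 0.0772), and that of BMF without Dex 2 h replicate 2 or any CpdA sample (0.73 to 0.81, limma adjusted p from 0.0575 to 0.0735). For BCL2 the difference of -0.56 did not pass (limma adjusted p = 0.0971). Without moderation of the variance, no member passed this test.

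Summing RPKM by role gives the balance of the 10 transcripts in each sample. The pro-survival sum was 380 and 343 RPKM in vehicle, 523 and 507 RPKM at Dex 2 h, 576 and 556 RPKM at Dex 4 h, 384 and 374 RPKM at CpdA 2 h, and 291 and 279 RPKM at CpdA 4 h. The BH3-only sum was 53.7 and 53.2 RPKM in vehicle, 60.4 to 65.6 RPKM in the Dex samples and 70.1 to 82.0 RPKM in the CpdA samples, while the effector sum stayed between 66.3 and 72.5 RPKM. The ratio of the pro-survival to the BH3-only sum was 7.08 and 6.44 in vehicle. With Dex it was 7.97 and 7.95 for the 2 h samples, 9.54 and 9.04 for the 4 h samples. With CpdA it was 4.69 and 4.81 for the 2 h samples, 3.805 and 3.98 for the 4 h samples. The 5 groups did not overlap in this ratio. BCL2L1 and PMAIP1 dominate the sums, and the ratio is given as a description with no test, since the members were chosen with results of these data known. Over the 10 samples the BH3-only genes BAD and BID were at 64.6 to 73.8 and 8.54 to 10.7 RPKM. The pro-survival BCL2L2 was at 11.6 to 15.7 RPKM. BOK, an effector-like relative of BAX, was at 30.4 and 30.3 RPKM in vehicle. It was at 34.9 to 48.2 RPKM in the Dex samples and at 26.4 to 30.0 RPKM in the CpdA samples. None of these genes is in the sums, so the ratio holds for the 10 members only. The effector sum likewise holds for BAX and BAK1 only. RNA levels do not give the amounts or the binding of the proteins.

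**Figure D4:**
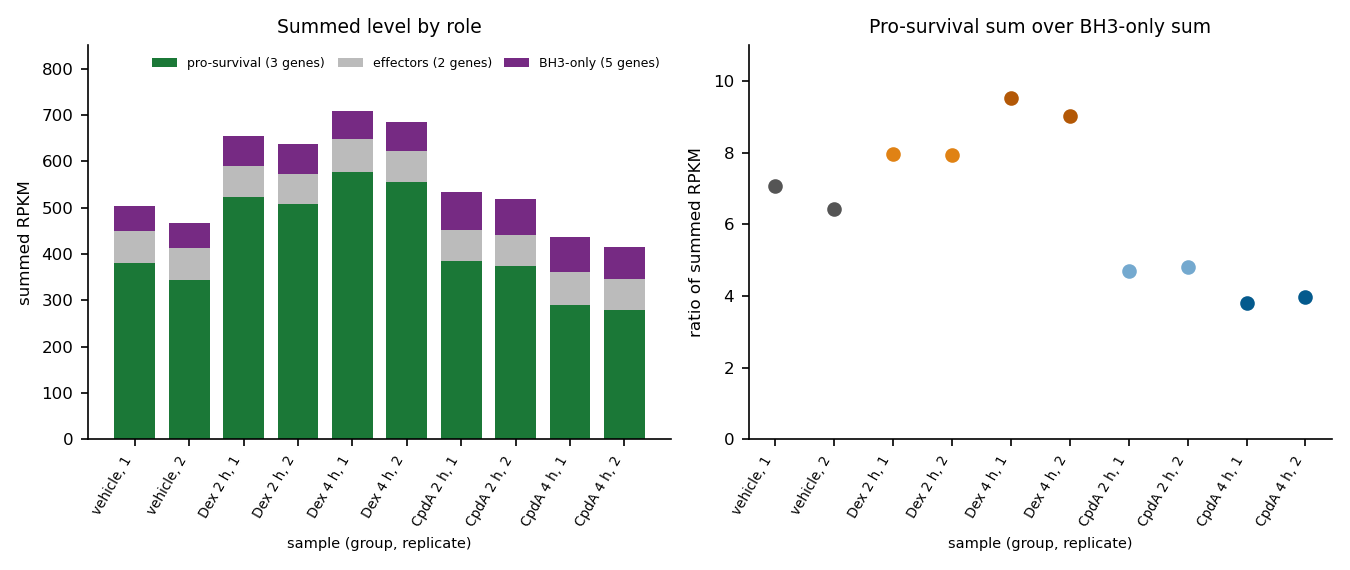
Left, summed RPKM (y axis, from 0) of the 3 pro-survival, 2 effector and 5 BH3-only genes, stacked for each of the 10 samples (x axis). Right, the pro-survival sum divided by the BH3-only sum in each sample, from 3.805 in a CpdA 4 h sample to 9.54 in a Dex 4 h sample.

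The transcripts of BH3-only genes are controlled by known transcription factors, and 11 of these were listed. With Dex for 2 h, 3 rose and 3 fell, and with Dex for 4 h, 4 rose and 4 fell. With CpdA, 4 rose and 0 fell by 2 h, and 5 rose and 3 fell by 4 h. Over all genes, 10.3% and 27.4% were called with Dex and 6.18% and 20.5% with CpdA, at 2 h and 4 h. CEBPB, a stress and inflammation factor, was at 25.5 and 26.9 RPKM in vehicle and at 198 to 245 RPKM in the Dex samples (log2 fold change 3.14 at 2 h and 2.94 at 4 h). FOXO1, which like FOXO3 activates BCL2L11 in other cells, was at 0.853 and 0.705 RPKM in vehicle, 1.94 and 1.93 RPKM at Dex 2 h, and 2.53 and 3.10 RPKM at Dex 4 h (log2 fold change 1.22 and 1.73). JUN, a subunit of AP-1, was at 70.4 and 59.4 RPKM in vehicle and at 20.1 to 21.9 RPKM in the Dex samples (log2 fold change -1.63 and -1.57).

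DDIT3, the factor CHOP of the unfolded protein response, was at 27.4 and 26.3 RPKM in vehicle, at 20.2 to 23.9 RPKM with Dex and at 51.6 to 66.1 RPKM with CpdA. It fell with Dex (-0.41 and -0.25) and rose with CpdA (0.98 and 1.25). ATF4, which acts upstream of DDIT3 and on PMAIP1, and FOXO3 are outside the naming rule and were chosen after their values were seen: ATF4 rose with CpdA (0.47 at 2 h and 0.61 at 4 h), and FOXO3 rose with Dex (1.11 and 1.13). The limma adjusted p-values of all the changes in these 6 factors called here were under 0.05. BCL2L11, whose promoter window holds the FOXO motif, lay below vehicle in the Dex samples, where FOXO1 and FOXO3 lay above it, and above vehicle in the CpdA samples, where FOXO1 also lay above it (1.03 to 1.16 RPKM, log2 fold change 0.48 at 4 h, limma adjusted p = 0.0294). BBC3, whose window holds the AP-1 motif, lay below vehicle in the Dex samples, as did JUN, but at CpdA 4 h JUN fell (51.8 and 51.2 RPKM, log2 fold change -0.33, limma adjusted p = 0.0127) while BBC3 was at 5.45 and 4.78 RPKM, overlapping vehicle. PMAIP1 was highest in the CpdA samples, as were ATF4 and DDIT3. The part of these factors in the member transcripts was not tested.

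**Figure D5:**
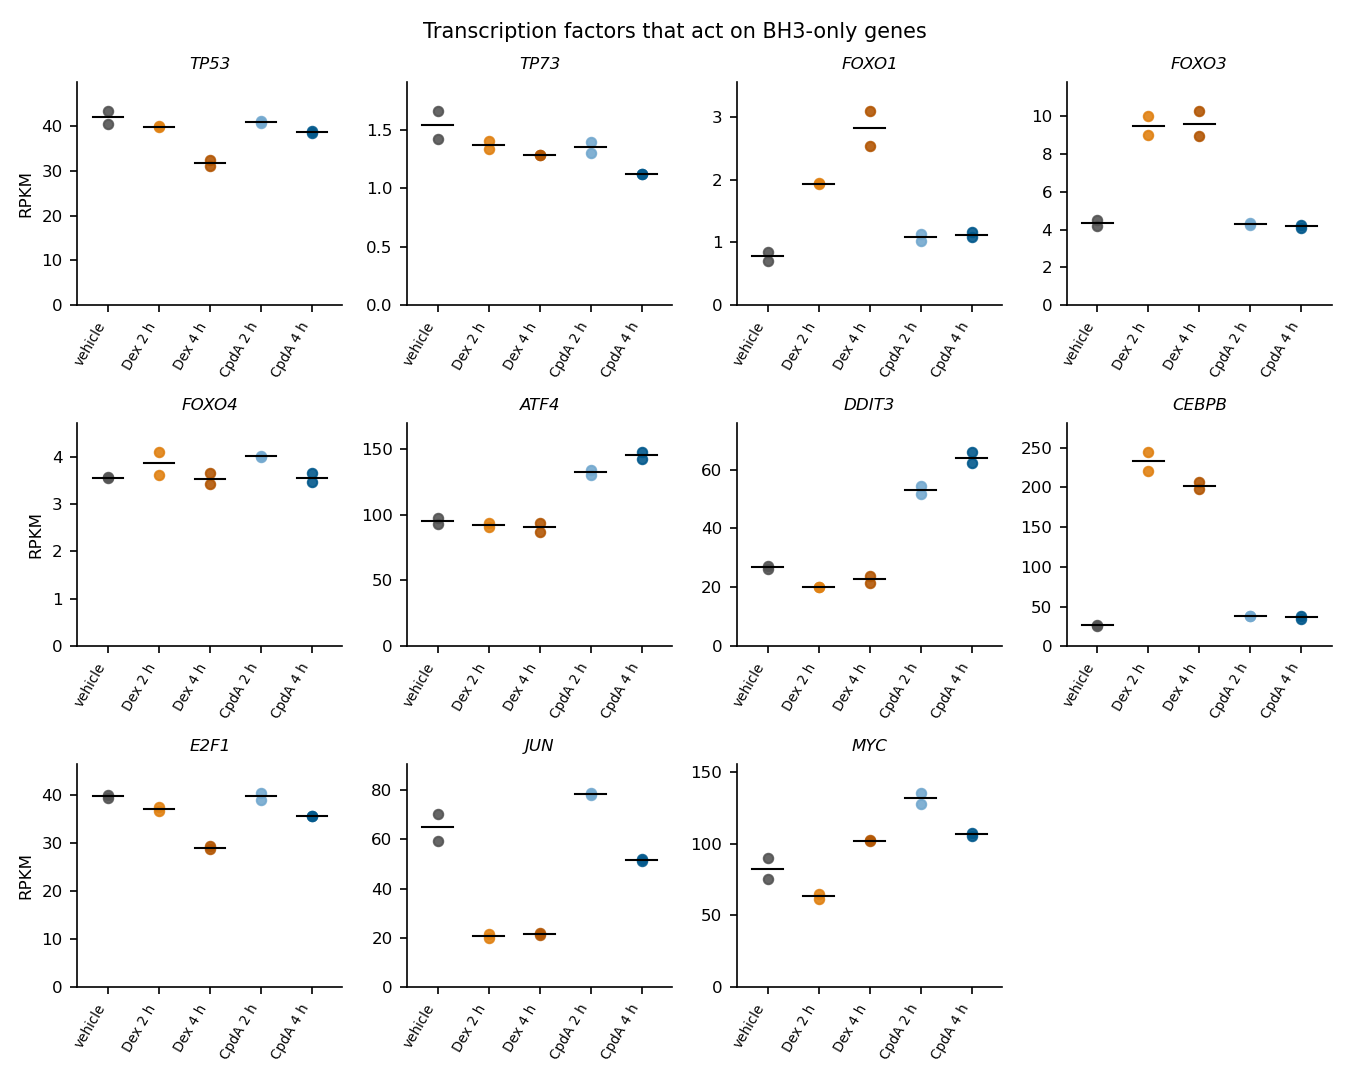
RPKM (y axis, from 0, a separate scale for each gene) of 11 transcription factors known to act on BH3-only genes, in the 5 groups (x axis). Each point is a sample and each line the mean of 2. CEBPB, FOXO1 and FOXO3 are highest and JUN lowest in the Dex samples, and ATF4 and DDIT3 are highest in the CpdA samples.

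Among 16 p53 target genes, 2 rose and 5 fell at Dex 2 h, 5 rose and 6 fell at Dex 4 h, and 3 rose and 4 fell at each CpdA time. Over all genes, 10.3% and 27.4% were called with Dex and 6.18% and 20.5% with CpdA, at 2 h and 4 h. BBC3, PMAIP1 and BAX are also known p53 targets and were counted with the members only. CDKN1A, a cell cycle inhibitor, rose in all 4 (log2 fold change 1.65, 1.39, 0.63 and 0.72 with Dex 2 h, Dex 4 h, CpdA 2 h and CpdA 4 h), as did GADD45A (0.92, 0.58, 1.04 and 0.53). ZMAT3 fell in all 4 (-0.55, -0.70, -1.26 and -1.17), as did the kinase gene PLK3 (-1.05, -0.92, -0.53 and -0.76). Each of these changes passed the limma test.

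Of 13 further BCL2 family genes, 8 passed the filter on low values, and 2 rose and 1 fell at Dex 2 h, 2 rose and 2 fell at Dex 4 h, 0 passed the test at CpdA 2 h and 2 fell at CpdA 4 h. None of these changes exceeded 1.5-fold, so the naming rule picks none, and those named here were chosen after their values were seen. BOK, an effector-like relative of BAX, was at 30.4 and 30.3 RPKM in vehicle and at 48.2 and 42.6 RPKM at Dex 4 h (0.58), and BCL2L2, which encodes the pro-survival BCL-W, was at 15.4 and 15.7 RPKM in vehicle and at 11.8 and 11.6 RPKM at Dex 4 h (-0.40). Of 10 genes of the apoptosome and caspases, 0 rose and 2 fell at Dex 2 h, 0 rose and 3 fell at Dex 4 h, 0 passed at CpdA 2 h, and 1 rose and 2 fell at CpdA 4 h. Beside each list of this paragraph stand the shares of all genes called: 10.3% and 27.4% with Dex and 6.18% and 20.5% with CpdA, at 2 h and 4 h. CYCS, cytochrome c, also chosen after its values were seen, rose at CpdA 4 h (0.27). Of 5 enzymes that attach ubiquitin to or remove it from MCL1, 1 rose at Dex 4 h (MARCH5, 0.16) and 1 at CpdA 4 h (FBXW7, 0.31), and 0 passed at 2 h with either ligand. All of these named changes passed the limma test.

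The 3 members with the widest range of group means were BMF, BCL2L1 and MCL1, and for each the most similar genes were found by Pearson correlation over the 10 samples of log2(RPKM + 0.1), among 1738 genes with an SD of at least 0.3. The samples fall into 5 groups, so the correlations describe the pattern of the groups and carry no p-value. For BMF they were LYL1 (r = 0.957), RRAD (r = 0.95) and TFAP2C (r = 0.949). For BCL2L1 they included MOB3A (r = 0.985) and TSPAN5 (r = 0.981). For MCL1 they were SGK1 (r = 0.987), PPARGC1A (r = 0.986) and NEDD9 (r = 0.971). PPARGC1A had group means of only 0.22 to 0.573 RPKM, near the filter limit of 0.5 RPKM. SGK1, a kinase gene known as a GR target, had means of 15.5 RPKM in vehicle, 81.8 and 70.8 RPKM with Dex at 2 h and 4 h, and 34.5 and 16.2 RPKM with CpdA at 2 h and 4 h.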

How the data were processed

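RNA was sequenced as 50-base single-end reads, with 3 samples a lane. The authors aligned the reads with TopHat2 2.0.13, estimated abundances in Partek 6.6 with default settings and deposited RPKM for each gene symbol, each symbol once. The build of this alignment is not given in the sources used here, and hg19 is named in the submitters' processing notes. Values were log2(RPKM + 0.1), without further normalization, and genes at 0.5 RPKM or more in at least 2 samples were kept. A limma 3.58.1 fit (R 4.3.3) over 5 group means, with an abundance trend, used all 10 samples, with Benjamini-Hochberg adjustment over the 12713 genes kept. It was tested on simulated data. All 10 members are named. From each other list, genes past an adjusted p of 0.05 and a fold of 1.5 against vehicle are named, at most 4 by size. Members and lists were chosen with earlier results of these data known. Depth was inferred from steps of 1 read, so reads per gene are approximate. Positions are GENCODE v44 on GRCh37, and promoters are from RefSeq (GRCh38.p14). Tables used Python 3.11.15, pandas 2.3.3 and numpy 2.4.6, and plots matplotlib 3.10.9. The alternatives were pseudocounts of 1 and 0.01, no filter or a stricter one, quantile normalization, median scaling, other variance models, fits of 4 samples, a replicate block, fold cutoffs and each library left out. The 12 ChIP samples (GR ChIP-exo, AP1 and p65 ChIP-seq) were not analysed here. Of the genes the naming and similarity rules pick, not all are reported here.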

Additional observations from a re-analysis of the deposited data

Results flagged for a closer look

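The values below were marked because a level differed between 2 time points, or the ligand difference changed over time, by a limma test of the difference itself. The differences between time points are of levels, with no vehicle change tested beside them. With Dex, BCL2 differed between 4 h and 2 h by -0.62 on the log2 scale. With CpdA, 4 members differed between 4 h and 2 h: MCL1 by -0.52, BIK by -0.51, BMF by -0.46 and BCL2L1 by -0.36. The difference Dex minus CpdA was larger at 4 h than at 2 h for BMF by 0.79, for BCL2L1 by 0.55 and for MCL1 by 0.54. Groups of 2 samples are too small for a test of single samples that stand apart.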

How the results depend on the processing

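The 42 member results called gave 591 values under alternatives without a fold cutoff: 499 stayed past the test in the same direction, 92 kept the direction and lost the call, and 0 changed direction. For 23 of the 42 the call held throughout. The count of members called moved by over 1.5 times as follows. Dex 4 h against vehicle (5 members) gave 3 under quantile normalization and 3 in a fit of its 4 samples alone. CpdA 2 h against vehicle (4) gave 2 without moderation of the variance, and CpdA 4 h against 2 h (4) gave 2 there and 2 with no filter. Dex 4 h against 2 h (1) gave 2 with a pseudocount of 1, 0 with at least 1 RPKM in every sample, 4 under quantile normalization, 4 under median scaling, 2 without an abundance trend and 0 in a fit of its 4 samples alone. The test of the ligand difference between times (3) gave 0 without moderation. With a fold over 1.5 the counts were 1, 1, 2 and 3 for Dex 2 h, Dex 4 h, CpdA 2 h and CpdA 4 h against vehicle, 3 and 4 for Dex against CpdA at 2 h and 4 h, 0 for CpdA 4 h against 2 h (1.73% of all genes) and 1 for the ligand difference between times (2.71%). With a fold over 2 they were 0, 0, 0 and 1 against vehicle (2.01%, 3.78%, 0.488% and 0.889% of all genes), 0 and 2 for Dex against CpdA (2.3% and 4.34%), 0 and 0 for Dex and CpdA between times (0.771% and 0.378%) and 0 for the ligand difference (0.881%).

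With 1 library left out in turn, the counts ranged over 3 to 5, 4 to 5, 2 to 4 and 3 to 5 for Dex 2 h, Dex 4 h, CpdA 2 h and CpdA 4 h against vehicle, over 4 to 4 and 7 to 9 for Dex against CpdA at 2 h and 4 h, over 0 to 3 for Dex and 1 to 2 for CpdA between times, and over 1 to 3 for the ligand difference between times. In these fits a lone sample is assumed to vary like the other groups. The causes of these changes were not tested.

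Log2 values that changed sign were all small and uncalled. Under quantile normalization BMF at Dex 4 h was 0.0985 and BAX at CpdA 4 h -0.0087. Under median scaling BAX was 0.0394 and BMF 0.0669 at Dex 4 h, MCL1 was 0.0023 at CpdA 4 h, and BCL2 was -0.0126 for Dex against CpdA at 2 h. With 1 library left out, the values against vehicle ran from -0.14 to 0.14 for BMF and -0.10 to 0.0384 for BAX at Dex 4 h, and from -0.0394 to 0.0522 for BAX, -0.19 to 0.0611 for MCL1 and -0.0009 to 0.18 for BCL2 at CpdA 4 h. For Dex against CpdA they ran from -0.10 to 0.11 for BCL2 at 2 h and from -0.11 to 0.0320 for BAX at 4 h.

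The labels do not say whether same-numbered samples belong together. Deviations of same-numbered samples correlated by 0.05 on average over the pairs of groups (-0.06 to 0.20). A replicate block raised the number of all genes called in every pairwise comparison, from 1311 to 1454 for Dex 2 h and from 3487 to 3763 for Dex 4 h against vehicle. With the replicate number as a block, Dex 4 h against 2 h called 4 members rather than 1, and no other count moved by over 1.5 times.

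With 2 samples a group, precision was limited most for BBC3, BIK and BCL2, with SEs of the log2 fold change of 0.161, 0.123 and 0.121. Their lowest samples rest on about 269.8, 47.9 and 274 reads. For BBC3, counting alone gives an SD of 6.1% of the value in that sample, and its vehicle replicates were at 5.07 and 3.55 RPKM.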
